A study of Mus musculus with 36 samples.

Results

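The comparison asked what the culture medium did to macrophages that received the same final stimulus, interferon-γ (IFN-γ) with lipopolysaccharide (LPS). It set 3 arrays of the group Mreg_+LPS, here called Mreg given LPS, against 3 arrays of the group MΦ_M1, here called M1 macrophages, chosen by their titles from the 36 arrays of the series. Both groups began as mouse bone marrow monocytes sorted for CD11b and Ly6C and against Ly6G, and both were cultured for 7 days with the stimulus present for the last 24 h. Mreg given LPS grew in 10% fetal calf serum, 10% human AB serum and 5 ng/ml M-CSF, the growth factor that drives monocytes towards macrophages, and M1 macrophages grew in 10% fetal calf serum and 20 ng/ml M-CSF without human serum. Both then received 25 ng/ml IFN-γ and 100 µg/ml LPS, a unit copied from the labels and not checked here. Human serum and the M-CSF dose differed together, so their parts cannot be told apart. The same pair of media was also profiled with IFN-γ alone (Mreg against MΦ_IFN-γ) and with no stimulus (Mreg_no IFN-γ against MΦ_M0), 3 arrays each. These 4 groups serve below to show where the effect of the medium differed under LPS, and Mreg and MΦ_IFN-γ also to check the labels. All 36 arrays of the series entered the fit that gave the spread for each test. The labels name no mouse strain, sex or age. They also leave unsaid whether replicates were separate animals or cultures, so a p-value here covers array-to-array spread that may be technical.

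IFN-γ, a T cell and NK cell product, acts through its receptor to raise antigen presentation, guanylate-binding proteins and chemokines such as Cxcl9 and Cxcl10. LPS acts through Tlr4 and its partner Cd14, activates NF-κB to give cytokines such as Tnf, Il1b and Il6, and through a second branch gives type I interferon and its target genes. The response is restrained by genes that it induces itself, among them inhibitors of NF-κB, SOCS proteins and MAP kinase phosphatases, and macrophages given both signals are the classical M1 type, marked by nitric oxide synthase (Nos2). Regulatory macrophages (Mreg) are a cultured macrophage type studied for suppressing T cell responses in transplantation, and Nos2 is part of that work.

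Levels are log2 values relative to the 75th percentile of each array, so 0 is a fairly bright gene and negative values are dimmer. Levels of different genes come from different probes and are not compared with each other. A gene was called where limma's adjusted p was under 0.05. Of 17605 genes tested, 9653 (54.8%) were called, 5421 higher in Mreg given LPS (30.8%) and 4232 lower (24%). A fitted change of at least 2-fold was found in 2504 genes that were higher (14.2%) and 2138 that were lower (12.1%), and at least 4-fold in 740 that were higher and 644 that were lower. The 3 arrays of Mreg given LPS did not overlap the 3 of M1 macrophages for 10368 genes (58.9%), of which 9094 were called, and the median log2 difference over all genes was 0.08. These shares are the background for every count that follows.

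**Figure D1:**
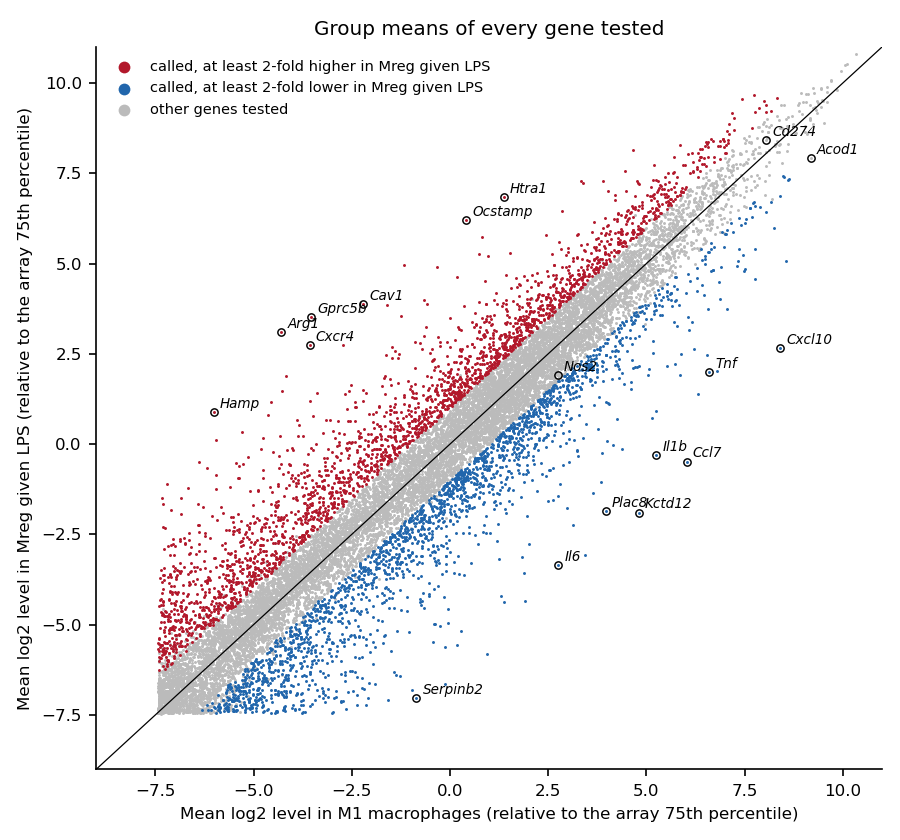
Mean log2 level of every gene tested in Mreg given LPS (vertical axis) against M1 macrophages (horizontal axis), 3 arrays each, relative to the array 75th percentile. Red points are the 2504 genes called and at least 2-fold higher in Mreg given LPS, blue points the 2138 called and at least 2-fold lower, grey points the other genes, and the line marks equal levels.

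Before scaling, the 75th percentile signal was 338.2 to 364.5 in Mreg given LPS and 448 to 467.8 in M1 macrophages, so every array of Mreg given LPS was dimmer, and the part of this in the results was not tested beyond the other scalings. Across arrays 50.4% to 53.9% of probes were well above background in Mreg given LPS against 50.6% to 52.8% in M1 macrophages. Correlations across genes were 0.984 to 0.989 among Mreg given LPS, 0.988 to 0.993 among M1 macrophages and 0.945 to 0.959 between the groups. No slide held arrays of both groups, so slide and medium cannot be told apart directly. With the slide as a random block 9687 genes were called, and with the arrays of 1 scan day alone 8358. Neither setting can separate slide from medium, because the 2 groups stayed on different slides in both. Nos2, which LPS induces together with IFN-γ, served as a check of the labels. It averaged 1.91 ± 0.37 in Mreg given LPS and 2.74 ± 0.44 in M1 macrophages, and was at −5.50 ± 0.50 in Mreg and −6.13 ± 0.47 in MΦ_IFN-γ, the same media with IFN-γ alone (SD, n = 3 each).

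Markers showed macrophages in both groups. Of 15 macrophage markers, 12 were above background on all 3 arrays of each group, with summed linear levels of 1.71e+03 to 1.97e+03 in Mreg given LPS and 1.67e+03 to 1.77e+03 in M1 macrophages. Adgre1, which encodes F4/80, read 8.83, 8.39 and 8.60 in Mreg given LPS against 8.80, 8.87 and 8.74 in M1 macrophages. Of 14 T and NK cell markers tested, 11 were above background on no array of Mreg given LPS and 10 on none of M1 macrophages, with sums of 0.888 to 1.3 in Mreg given LPS and 0.551 to 0.667 in M1 macrophages. In each group 3 T and NK cell markers were above background on all 3 arrays, the brightest in Mreg given LPS being Lck, Cd3e and Cd4, while Cd3d and Cd3g were above background in neither group. Of 9 B and plasma cell markers tested, 5 were above background on all 3 arrays of Mreg given LPS and 3 on all 3 of M1 macrophages, with sums of 46.9 to 63.2 in Mreg given LPS and 45.3 to 47.7 in M1 macrophages, and Cd79a was above background in neither. In Mreg given LPS the summed Ly6C-high monocyte markers were 343 to 559, the neutrophil markers 13.6 to 21.3 and the dendritic cell markers 301 to 329. In M1 macrophages these sums were 556 to 682, 8.14 to 11.9 and 357 to 425. Their part in the results below was not tested. In bulk RNA, fewer cells of a type and less RNA per cell cannot be told apart.

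The largest rises in Mreg given LPS included arginase, a chemokine receptor and caveolin. The largest measured difference was in arginase 1 (Arg1), which splits arginine into ornithine and urea and so uses the substrate of Nos2. Arg1 read 2.65, 3.56 and 3.10 in Mreg given LPS against −4.34, −4.20 and −4.36 in M1 macrophages, 169-fold higher (log2 7.40 ± 0.40 SE, adjusted p = 3.7e-14). Its probe lies at chr10:24605804-24605863 of mm8, the build of the array design. The 6 arrays fell into 2 tight sets far apart. Cxcr4, the receptor for the retention chemokine Cxcl12, read 2.70, 2.74 and 2.78 in Mreg given LPS against −3.39, −3.04 and −4.29 in M1 macrophages, 79.6-fold higher (log2 6.31 ± 0.33, adjusted p = 2.1e-14). Cav1, the coat protein of caveolae, read 4.56, 3.97 and 3.10 in Mreg given LPS against −2.53, −2.19 and −1.94 in M1 macrophages, a log2 difference of 6.10 (adjusted p = 6.2e-11). All 3 arrays of Mreg given LPS stood above all 3 of M1 macrophages for both genes. The gaps in Arg1 and Cav1 were not particular to LPS. Between the same media, Arg1 was higher in the Mreg medium by 7.43 with IFN-γ alone and by 9.14 without stimulus. Cav1 was higher there by 7.12 and 6.62 (log2).

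The other genes with the largest rises covered secreted and surface proteins. Angptl4, a secreted inhibitor of lipoprotein lipase, read 2.05, 1.71 and 1.94 in Mreg given LPS against −3.94, −4.19 and −4.41 in M1 macrophages (log2 6.08). Its relative Angptl2 rose by 5.72 and Col18a1, a basement membrane collagen, by 6.13 on the log2 scale. Htra1, a secreted serine protease, read 7.31, 6.39 and 6.84 in Mreg given LPS against 0.95, 1.54 and 1.60 in M1 macrophages (log2 5.48). Ocstamp, needed for fusion of osteoclasts and macrophages into giant cells, read 6.62, 5.94 and 6.06 in Mreg given LPS against 1.40, 0.27 and −0.42 in M1 macrophages. For each of these genes all 3 arrays of Mreg given LPS were above all 3 M1 arrays. Gprc5b, an orphan G protein-coupled receptor, was higher by 7.05, the immediate early response gene Ier5l by 5.61, Oit3 by 5.48 and the circadian repressor Nr1d1 by 5.43, where Angptl2, Ier5l and Nr1d1 were above background on 2 of the 3 M1 arrays. With IFN-γ alone Gprc5b read −0.39, 1.49 and 0.24 in Mreg against −6.87, −5.54 and −5.65 in MΦ_IFN-γ. Ier5l was closer there, at −1.32, −0.57 and −1.30 against −2.09, −1.96 and −2.03.

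Some genes were above background in Mreg given LPS and on no M1 array, so only a lower bound of the fold can be given. Hamp, which encodes the iron hormone hepcidin, was at least 64-fold higher. F13a1, the coagulation factor XIII A chain, was at least 22.6-fold higher, the spindle protein Nusap1 at least 22.5-fold, the small GTPase Rab4a at least 24.6-fold, Filip1 at least 21.6-fold and the adhesion receptor Adgrg1 at least 19-fold. A bound compares the mean of the bright group with the lowest signal that counted as above background.

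**Figure D2:**
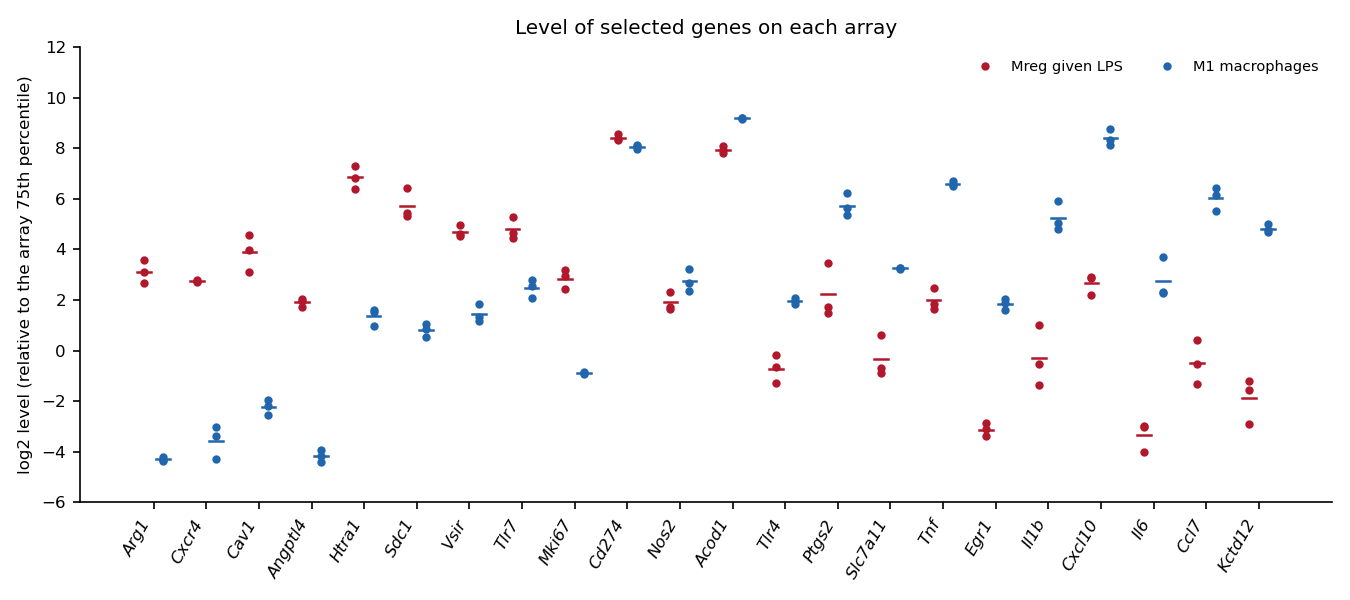
Log2 level of 22 genes on each of the 3 arrays of Mreg given LPS (red, left of each pair) and of M1 macrophages (blue, right), relative to the array 75th percentile, with short bars at the group means. Arg1 lies between 2.65 and 3.56 in Mreg given LPS and at or below −4.20 in M1 macrophages, Cd274 is above 7.9 in both, and Il6, Ccl7 and Kctd12 show the reverse order of Arg1.

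The largest falls included cytokines and chemokines of the LPS response. Il6, the acute-phase cytokine, read −2.99, −3.01 and −4.02 in Mreg given LPS against 3.69, 2.28 and 2.32 in M1 macrophages, 68.6-fold lower (log2 −6.10 ± 0.51, adjusted p = 9.8e-11). Ccl7, a monocyte attractant, read −1.32, 0.40 and −0.53 in Mreg given LPS against 5.51, 6.14 and 6.43 in M1 macrophages, 91.3-fold lower (log2 −6.51 ± 0.58). Il1b read −0.55, 1.00 and −1.38 in Mreg given LPS against 5.93, 5.05 and 4.79 in M1 macrophages, 47.4-fold lower. Each cytokine was measurable in both groups, and every M1 array was above every array of Mreg given LPS. Tnf read 2.49, 1.64 and 1.85 in Mreg given LPS against 6.71, 6.51 and 6.57 in M1 macrophages, 24.3-fold lower (log2 −4.60 ± 0.34, adjusted p = 1.1e-11). Ptgs2, the inducible cyclooxygenase that makes prostaglandin precursors, read 3.45, 1.49 and 1.71 in Mreg given LPS against 6.21, 5.62 and 5.37 in M1 macrophages (log2 −3.52). For Ptgs2 the first array of Mreg given LPS stood above the other two without reaching the M1 arrays.

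The other large falls included genes outside the cytokines. Kctd12, a partner of GABA-B receptors, had the largest fall and read −2.92, −1.55 and −1.21 in Mreg given LPS against 4.67, 4.78 and 4.99 in M1 macrophages, 104-fold lower (log2 −6.70 ± 0.28, adjusted p = 4.1e-16). Ch25h, the interferon-induced cholesterol 25-hydroxylase, fell by 6.26, Plac8 by 5.81, the medium-chain fatty acid receptor Gpr84 by 5.73 and Lysmd2 by 5.51 on the log2 scale, where Ch25h and Lysmd2 were above background on 2 of the 3 arrays of Mreg given LPS. The paired receptor genes Pilrb1, Pilrb2 and Pilra differed by −6.53, −5.45 and −5.38, but they are near-identical in sequence and their probes may not separate them. On no array of Mreg given LPS were Mycl, Serpinb2, Edn1, Gpr55, Scimp or Mb21d2 above background. The transcription factor Mycl was at least 31.5-fold lower, the plasminogen activator inhibitor Serpinb2 at least 19.3-fold, endothelin 1 (Edn1) at least 17.7-fold, Gpr55 at least 11.7-fold, the adaptor Scimp at least 9.29-fold and Mb21d2 at least 8.37-fold.

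Not every M1 gene was called lower. Nos2, which makes nitric oxide from arginine, read 2.33, 1.65 and 1.74 in Mreg given LPS against 3.21, 2.68 and 2.34 in M1 macrophages, groups that did not overlap, but the difference of −0.84 ± 0.47 did not pass (adjusted p = 0.14). Il12b differed by −0.64 (adjusted p = 0.38) and had the opposite sign without the first M1 array, and Il10, an inhibitory cytokine, differed by −0.70 (adjusted p = 0.30). Acod1, which makes itaconate, read 8.09, 7.79 and 7.92 in Mreg given LPS against 9.16, 9.20 and 9.20 in M1 macrophages and did not pass either (log2 −1.25 ± 0.63, adjusted p = 0.095). These genes were measured well above background in all 6 arrays, and the tests leave their differences unresolved. Cd274, the inhibitory ligand PD-L1, read 8.57, 8.32 and 8.37 in Mreg given LPS against 8.14, 8.07 and 7.95 in M1 macrophages, again without overlap (log2 0.36, adjusted p = 0.089). Its difference was just below 0 in the authors' deposited values. The mannose receptor Mrc1, a marker of alternative activation, read −0.79, 0.89 and −0.16 in Mreg given LPS against −2.11, −0.66 and −0.59 in M1 macrophages, overlapping values that gave no call (adjusted p = 0.095). Retnla, another such marker, was above background in neither group.

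The LPS receptor genes Tlr4 and Cd14 were lower in Mreg given LPS. Tlr4 read −1.30, −0.68 and −0.17 in Mreg given LPS against 1.83, 1.96 and 2.06 in M1 macrophages (log2 −2.67 ± 0.20, adjusted p = 1.5e-11), and its adaptor Tirap differed by −2.21. Cd14 differed by −1.09 (adjusted p = 0.012), a call lost without the first M1 array (adjusted p = 0.068). Tlr7, the sensor of single-stranded RNA, read 5.28, 4.44 and 4.65 in Mreg given LPS against 2.07, 2.54 and 2.79 in M1 macrophages (log2 2.32, adjusted p = 1.1e-09). Lbp, which carries LPS to Cd14, was higher by 1.99. Of 22 Toll-like receptor and LPS recognition genes tested, 7 were higher and 10 lower, with a median log2 difference of 0.07.

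**Figure D3:**
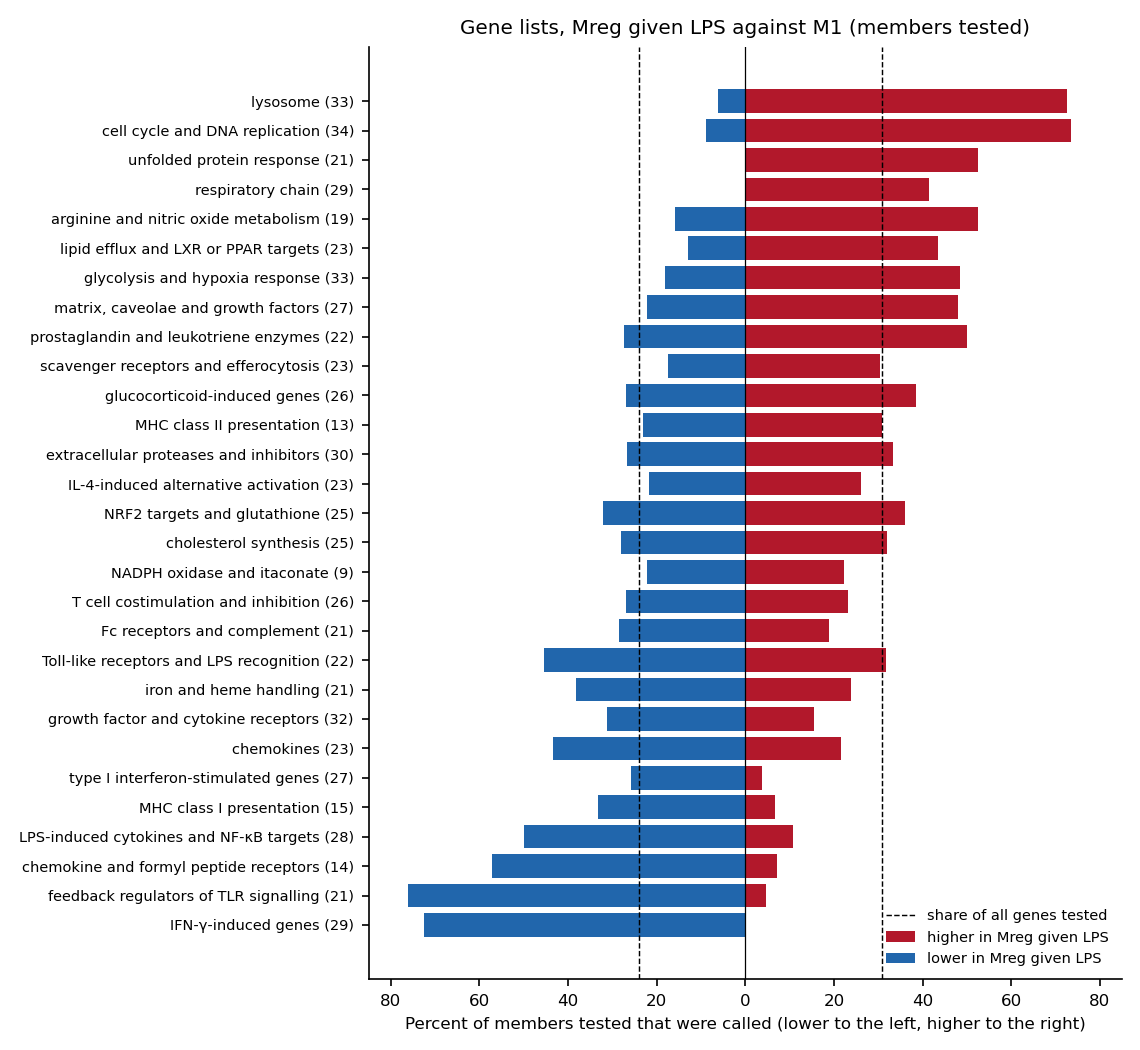
Percent of each gene list's tested members (number in brackets) called higher (red, right) or lower (blue, left) in Mreg given LPS than in M1 macrophages; dashed lines mark the shares over all genes tested, 30.8% higher and 24% lower. Feedback regulators and IFN-γ-induced genes extend to the left of the dashed line, and cell cycle and lysosome genes to the right.

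The LPS program as a list was weighted towards lower levels. Of 28 cytokines and NF-κB targets, 14 were lower and 3 higher (median log2 −1.29, against 0.08 over all genes). The list also leaned lower in the Mreg medium without LPS. With IFN-γ alone 13 were lower and 1 higher (median −0.78), and without stimulus 8 were lower and 2 higher (median −0.40). With LPS, the granulocyte growth factor Csf3 was at least 3.87-fold lower (not called after normexp background correction). The 3 that were higher, chosen after their values were seen, were the cytokines Il15 (log2 0.87) and Il18 (0.74, not called on the arrays of 1 scan day alone) and the adhesion molecule Vcam1 (1.55), whose adjusted p of 0.049 rose past the threshold in 10 of 17 alternatives. Of 21 feedback regulators of Toll-like receptor signalling, 16 were lower and 1, Bcl6, was higher (median −1.26), a call that quantile normalization, the authors' deposited values and the arrays of 1 scan day did not give. Socs3, which blocks signalling from the interleukin-6 receptor, read 5.69, 3.79 and 4.87 in Mreg given LPS against 7.61, 7.44 and 7.43 in M1 macrophages (log2 −2.71). Socs1, the brake on IFN-γ signalling, differed by −3.31, the nuclear NF-κB regulator Nfkbiz by −3.27 and the A20 partner Tnip3 by −2.80.

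Among chemokines 10 of 23 were lower and 5 higher (median −1.56). Cxcl10, which attracts T cells through Cxcr3, read 2.92, 2.18 and 2.88 in Mreg given LPS against 8.75, 8.34 and 8.11 in M1 macrophages, 53.4-fold lower (adjusted p = 4.5e-07). Its relatives Cxcl11 and Cxcl9 differed by −4.90 and −3.18, and Cxcl9 read 5.94, 3.31 and 4.48 in Mreg given LPS against 8.14, 7.73 and 7.41 in M1 macrophages. Ccl24 was above background on no array of Mreg given LPS and at least 5.6-fold lower, again not after normexp correction. The 5 higher chemokines, chosen after their values were seen, were Ccl6 (log2 2.54), Ccl9 (1.15, not called on the arrays of 1 scan day alone), Ccl17 (above background on no M1 array), Ccl22 and Cx3cl1. The Ccr4 ligand Ccl22 differed by 4.17 and Cx3cl1, whose receptor is carried by patrolling monocytes and microglia, by 4.91, with 1 M1 array each above background. Of 14 chemokine and formyl peptide receptors, 8 were lower and only Cxcr4 was higher. The formyl peptide receptor Fpr1 fell by 4.92, the complement receptor C3ar1 by 2.06, and Ccr2, the receptor for Ccl7, was at least 6.14-fold lower, a call lost after normexp correction.

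Interferon target genes were counted by class. Of 29 IFN-γ-induced genes, 21 were lower in Mreg given LPS and none was higher by limma (0 higher at an unadjusted p under 0.05), with a median log2 difference of −1.24. In the Mreg medium 16 were also lower and 0 higher with IFN-γ alone (median −0.80). Without stimulus 20 were lower and 0 higher (median −1.40). The guanylate-binding protein Gbp4 read 2.66, 1.41 and 2.00 in Mreg given LPS against 7.32, 6.66 and 6.38 in M1 macrophages (log2 −4.76, adjusted p = 2.4e-09), and Gbp2b differed by the same amount. Ido1, which degrades tryptophan, differed by −2.53, a call lost in 3 of 17 alternatives, among them without the first M1 array. Of 27 type I interferon-stimulated genes, only 7 were lower and 1, Irf9 (log2 0.80), was higher, with a median of −0.41. The kinase Eif2ak2 differed by −1.28, Cmpk2 by −1.57, Oas1g by −1.34 (not called without the third M1 array, nor after normexp correction with an adjusted p of 0.46) and Rsad2, which encodes viperin, by −1.47 (not called on the mean of its probes, adjusted p = 0.66). Ifit3, a cytosolic RNA-binding antiviral protein, read 6.35, 7.54 and 7.89 in Mreg given LPS against 6.27, 7.25 and 7.43 in M1 macrophages, and its difference of 0.27 (adjusted p = 0.71) was below 0 after quantile normalization and in the authors' deposited values.

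Promoter sequence is shown for 4 of these genes, because they stand for the interferon and NF-κB branches and differ in how the medium affected them. The sequences are from RefSeq on GRCm38.p6, given 5′ to 3′ on the gene's strand within 250 bases before to 50 after the annotated start. Capitals mark matches, on either strand and joined where they overlap, to GAAANNGAAA, a form of the interferon-stimulated response element, or to the NF-κB consensus. Matches of the 2 motifs did not overlap in these windows. Ifit3 is at chr19:34583368-34583421 on the plus strand, Rsad2 at chr12:26456548-26456587 on the minus strand, the Cxcl10 windows at chr5:92349078-92349117 and chr5:92348978-92349053 on the minus strand, and Il6 at chr5:30013055-30013094 on the plus strand.
Ifit3, response element: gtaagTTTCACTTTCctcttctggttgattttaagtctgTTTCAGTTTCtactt
Rsad2, response element: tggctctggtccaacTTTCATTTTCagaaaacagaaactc
Cxcl10, response element: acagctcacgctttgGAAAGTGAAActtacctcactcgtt
Cxcl10, NF-κB: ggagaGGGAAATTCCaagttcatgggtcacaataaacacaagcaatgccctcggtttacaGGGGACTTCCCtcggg
Il6, NF-κB: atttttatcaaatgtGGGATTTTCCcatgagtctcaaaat
The response element was found in 12 of 20 type I interferon-stimulated genes with a promoter in the table (60%) and in 11 of 21 IFN-γ-induced genes (52.4%), against 3.79% of 11550 genes tested and 3.99% of 27025 genes in the table. The NF-κB consensus was found in 4 of 18 LPS-induced cytokines and targets (22.2%) and in 6 of 18 feedback regulators (33.3%), but also in 25% of the type I interferon-stimulated genes and 23.8% of the IFN-γ-induced genes, against 11.9% of genes tested and 9.55% of all. A match is a description of the letters and not a binding site. Ifit3 holds 2 response elements and did not pass, and Cxcl10, which holds both motifs, was among the largest falls. Whether motif content goes with the effect of the medium was not tested.

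Arginine and nitric oxide genes were mainly higher, with 10 of 19 higher and 3 lower (median log2 0.59). Beside Arg1, Sat1, which acetylates polyamines, read 5.71, 5.78 and 5.85 in Mreg given LPS against 2.96, 3.34 and 3.43 in M1 macrophages (log2 2.54, adjusted p = 3.2e-13). Ddah2, which removes methylated arginines that inhibit nitric oxide synthases, was higher by 3.34, and Azin1, an antizyme inhibitor that favours polyamine synthesis, by 1.94. The 3 lower genes, chosen after their values were seen, were Ass1 (log2 −1.92), which rebuilds arginine from citrulline, Gch1 (−1.26), which makes the cofactor of Nos2, and the amino acid transporter Slc7a8 (−1.70). Nos2 itself did not pass, as above.

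T cell ligands went in both directions, with 6 of 26 higher and 7 lower. Vsir, the inhibitory ligand VISTA, read 4.52, 4.96 and 4.60 in Mreg given LPS against 1.83, 1.32 and 1.16 in M1 macrophages (log2 3.26 ± 0.18, adjusted p = 4.1e-14). The costimulatory ligand Cd86 read 3.73, 2.03 and 2.47 in Mreg given LPS against 4.45, 4.56 and 4.15 in M1 macrophages (log2 −1.64, adjusted p = 0.002), and Tnfsf4, the ligand of OX40, was lower and above background on only 1 of the 3 arrays of Mreg given LPS. Neither Vsir nor Cd86 had overlapping values between Mreg given LPS and M1 macrophages. Of 13 class II presentation genes, 4 were higher and 3 lower: the thiol reductase Ifi30 differed by 1.55 and H2-DMb2 by 1.18 (adjusted p = 0.72 on the mean of its probes), and the class II transactivator Ciita by −1.84, a call lost without the first M1 array or without the second or the third array of Mreg given LPS. H2-Oa differed by −1.44 and was not called without the second array of Mreg given LPS. In class I presentation 5 of 15 were lower and 1, the peptide trimming enzyme Erap1 (log2 0.82), was higher, and the peptide transporter subunit Tap2 fell by 1.43.

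Lysosome genes were higher in 24 of 33 cases and lower in 2 (median log2 0.67). Atp6v0d2, a proton pump subunit of lysosomes and osteoclasts, read 2.72, 3.23 and 2.49 in Mreg given LPS against −0.97, −0.46 and −0.89 in M1 macrophages (log2 3.59, adjusted p = 1.2e-10). The protease Ctsl read 9.59, 9.82 and 9.63 in Mreg given LPS against 7.06, 8.04 and 8.11 in M1 macrophages (log2 1.94), and the channel Mcoln1 rose by 1.61. The 2 lower members were the hydrolase Gusb (log2 −1.71) and the protease Ctsc (−1.18), the second chosen after its value was seen. Lipid genes also leaned upward, with 10 of 23 higher and 3 lower. Fabp4, a fatty acid carrier, read 6.98, 7.29 and 7.42 in Mreg given LPS against 2.47, 3.84 and 3.83 in M1 macrophages (log2 3.85), its relative Fabp5 rose by 2.16 and the lipid droplet coat Plin2 by 2.14. Cholesterol synthesis had no common direction (8 of 25 higher, 7 lower): Mvd rose by 2.30 and Insig1 by 1.84, while Stard4, above background on 2 of the 3 arrays of Mreg given LPS, fell by 2.42.

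Cell cycle genes were higher in 25 of 34 cases and lower in 3 (median log2 1.06). Mki67, a marker of dividing cells, read 2.94, 2.42 and 3.17 in Mreg given LPS against −0.94, −0.89 and −0.85 in M1 macrophages (log2 3.73 ± 0.32, adjusted p = 1.7e-10). The mitotic cyclin Ccnb1 was at least 12.3-fold higher, the checkpoint kinase Bub1 at least 6.43-fold and Rrm2, which supplies deoxynucleotides, at least 4.82-fold, each above background on no M1 array. Myc, a driver of growth and division, read 1.08, −0.44 and −0.17 in Mreg given LPS against −4.67, −5.11 and −4.49 in M1 macrophages (log2 4.92). The 3 lower members, chosen after their values were seen, were the G1 cyclins Ccnd2 (log2 −3.34) and Ccne1 (−1.02) and the cyclin kinase inhibitor Cdkn1a (−0.66), the last not called in 4 of 17 alternatives, among them without the first M1 array or the third array of Mreg given LPS.

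Stress and energy genes gave a mixed picture. In the unfolded protein response 11 of 21 were higher and none lower (0 at an unadjusted p under 0.05, median 0.47): the sensor Atf6 rose by 1.39, Herpud1 by 1.59 and Ddit3, the stress factor CHOP, by 1.15 (not called on the arrays of 1 scan day alone). In the respiratory chain 12 of 29 were higher and none lower (0 unadjusted, median 0.34). Of 33 glycolysis and hypoxia genes, 16 were higher and 6 lower, and the growth factor Vegfa read 6.11, 5.92 and 6.40 in Mreg given LPS against 3.86, 3.82 and 3.31 in M1 macrophages (log2 2.48). Aldoc rose by 2.48, Egln3 by 2.26 and Adm by 2.03 (not called when only the 2 groups entered the fit). Genes controlled by NRF2, the oxidative stress factor, divided, with 9 of 25 higher and 8 lower. The cystine transporter Slc7a11 read −0.90, 0.61 and −0.69 in Mreg given LPS against 3.26, 3.23 and 3.25 in M1 macrophages (log2 −3.57), the NADPH enzyme G6pdx 3.39, 3.23 and 3.51 in Mreg given LPS against 6.20, 6.11 and 6.15 in M1 macrophages (log2 −2.78), Me1 fell by 3.00 and Nqo1 by 2.93. Among iron genes 5 of 21 were higher and 8 lower, with the iron exporter Slc40a1 down by −1.77 and Cp by −1.66, a call lost without the second array of Mreg given LPS or the third M1 array.

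Matrix, lipid mediator and differentiation genes gave further large differences. Of 27 matrix, caveola and growth factor genes, 13 were higher and 6 lower (median 0.91). Sdc1, a heparan sulfate proteoglycan, read 5.31, 6.42 and 5.45 in Mreg given LPS against 0.53, 1.03 and 0.87 in M1 macrophages (log2 4.92), Gdf15, a stress cytokine, rose by 3.49 and the caveola protein Cavin3 was at least 6.27-fold higher. Prostaglandin and leukotriene genes were higher in 11 of 22 cases and lower in 6: Ltc4s, which makes leukotriene C4, read 1.30, 1.45 and 0.85 in Mreg given LPS against −3.17, −3.47 and −4.05 in M1 macrophages (log2 4.76), the prostacyclin receptor Ptgir rose by 2.62, and the prostaglandin E2 receptor Ptger4 fell by 2.04 together with Ptgs2. Among extracellular proteases and inhibitors 10 of 30 were higher and 8 lower, with Serpinb1a up by 3.01, Serpinb6b by 2.71 and Mmp19 by 2.42.

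Cytokine receptors were lower in 10 of 32 cases and higher in 5. Il7r, the interleukin-7 receptor chain, read 6.43, 6.61 and 6.35 in Mreg given LPS against 2.17, 3.32 and 3.07 in M1 macrophages (log2 3.61), while Il10ra fell by 2.30, Il21r by 2.25 and the shared chain Il2rg by 1.82. Csf1r, the receptor for M-CSF, read 5.56, 5.64 and 5.78 in Mreg given LPS against 6.27, 6.32 and 6.20 in M1 macrophages (log2 −0.60, adjusted p = 0.0077). The scavenger receptor Stab1 fell by 3.05 and Marco by 2.36, while Cd93 rose by 2.28 and Trem2, a lipid-sensing receptor, by 1.76. In complement and Fc receptor genes 4 of 21 were higher and 6 lower: properdin (Cfp), which promotes complement activation, fell by 2.83 and the inhibitory Fc receptor Fcgr2b by 2.54. Glucocorticoid-induced genes were higher in 10 of 26 cases and lower in 7. Klf9 was up by 4.14 and the kinase Sgk1 by 3.96, and Stab1 was among the lower members. Of 23 genes induced by IL-4, 6 were higher and 5 lower, among the higher the ribonuclease Rnase2a (log2 4.01) and Arg1. Among the lower was Ccl24, at least 5.6-fold but not called after normexp correction. In the NADPH oxidase and itaconate list 2 of 9 were higher and 2 lower.

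Osteoclast and fusion markers were higher in 6 of 13 cases and lower in 1, Fosl1 (log2 −1.15). Their summed linear level was 130 to 175 in Mreg given LPS and 19.8 to 22.9 in M1 macrophages, and Ocstamp and Acp5 had the highest levels of the list in Mreg given LPS. Acp5, tartrate-resistant acid phosphatase, read 5.91, 5.94 and 5.55 in Mreg given LPS against 1.98, 2.51 and 2.82 in M1 macrophages (log2 3.36). The integrin chain Itgb3, which osteoclasts carry, did not pass (log2 −0.59, adjusted p = 0.24). With IFN-γ alone 6 of the 13 markers were higher in the Mreg medium and 0 lower (median log2 1.55, against 0.28 with LPS). Without stimulus 5 were higher and 0 lower.

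The effect of the medium was next set against the same effect under the other 2 stimuli, which use other arrays. With IFN-γ alone 4879 genes were called between Mreg and MΦ_IFN-γ (27.7%), and without stimulus 5483 between Mreg_no IFN-γ and MΦ_M0 (31.1%). Of the calls under IFN-γ with LPS, 36.9% were also calls under IFN-γ alone, and of the calls under IFN-γ alone 73% were also calls with LPS, 88.4% of these 3560 shared genes with the same sign and 413 with the opposite sign. For the unstimulated cultures the shares were 39.9% and 70.2%, 82.9% of 3847 shared genes with the same sign and 659 with the opposite sign. A total of 2273 genes were called in the same direction under all 3 conditions, 1351 higher and 922 lower in the Mreg medium. The difference of effects itself was tested in the same fit. Relative to IFN-γ alone the effect was more positive under LPS for 3306 genes (18.8%) and more negative for 2847 (16.2%). Relative to no stimulus it was more positive for 3272 (18.6%) and more negative for 3179 (18.1%). These counts include genes below background in some of the 4 groups. Mreg given LPS and Mreg shared slides, but no slide held arrays of both M1 macrophages and MΦ_IFN-γ. Slide is therefore not balanced in the difference from IFN-γ alone, and its part there cannot be told apart.

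**Figure D4:**
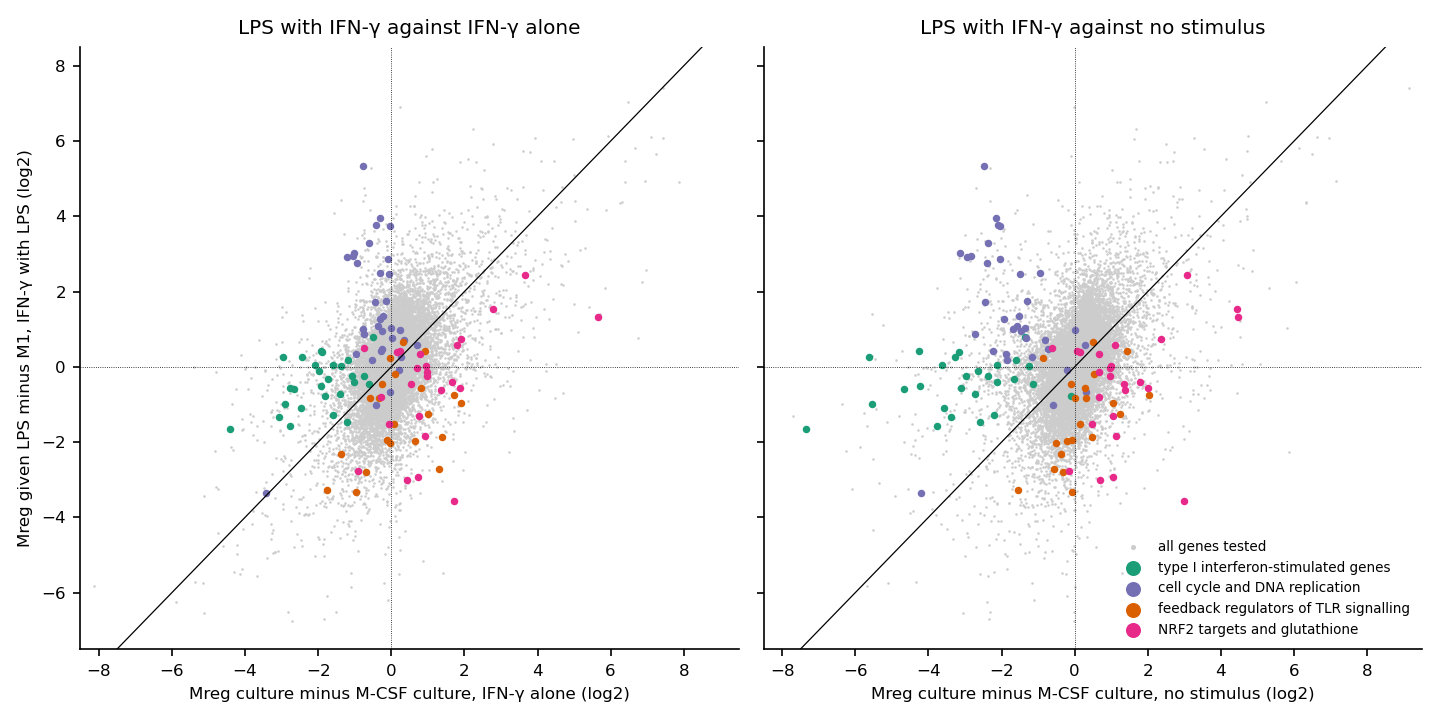
Log2 difference between Mreg given LPS and M1 macrophages (vertical axis) against the log2 difference between the same media with IFN-γ alone (left, horizontal axis) and without stimulus (right), 1 point per gene tested. Type I interferon-stimulated genes have a median of −0.41 on the vertical axis but −1.88 and −2.98 on the horizontal axes, and the line marks equal effects.

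Type I interferon-stimulated genes differed in this way. The Mreg medium gave lower levels of 25 of 27 with IFN-γ alone and 26 of 27 without stimulus, but of 7 with LPS. The difference of effects was more positive for 17 of 27 relative to IFN-γ alone (median 1.41) and for 24 relative to no stimulus (median 2.18), and more negative for none (0 and 0 at an unadjusted p under 0.05). Ifit3 averaged 7.26 ± 0.81 in Mreg given LPS and 6.98 ± 0.62 in M1 macrophages (SD, n = 3 each, here and below). It averaged 2.37 ± 0.17 in Mreg and 5.35 ± 0.20 in MΦ_IFN-γ, and −1.99 ± 0.47 in Mreg_no IFN-γ and 3.65 ± 0.71 in MΦ_M0. The 2 media were thus closer with LPS than without it. Ccl5, a T cell attractant, averaged 9.89 ± 0.14 in Mreg given LPS and 9.59 ± 0.04 in M1 macrophages, against 0.09 ± 0.99 in Mreg and 4.20 ± 0.78 in MΦ_IFN-γ. The complement protein C3 averaged 9.76 ± 0.45 in Mreg given LPS and 9.61 ± 0.15 in M1 macrophages, against 1.66 ± 0.99 in Mreg and 4.46 ± 0.47 in MΦ_IFN-γ. Acod1 averaged 7.93 ± 0.15 in Mreg given LPS and 9.19 ± 0.03 in M1 macrophages, and 1.07 ± 0.44 in Mreg and 4.94 ± 0.63 in MΦ_IFN-γ, but its difference of effects (adjusted p = 0.023) was not called without the third Mreg or the third MΦ_IFN-γ array. Cd40, a receptor for T cell help, averaged 6.29 ± 0.71 in Mreg given LPS and 5.74 ± 0.42 in M1 macrophages, and −0.67 ± 0.40 in Mreg and 1.03 ± 0.24 in MΦ_IFN-γ. Of 29 IFN-γ-induced genes, 2 were more positive and 4 more negative relative to IFN-γ alone, and 14 were more positive and 6 more negative relative to no stimulus (median 0.77).

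**Figure D5:**
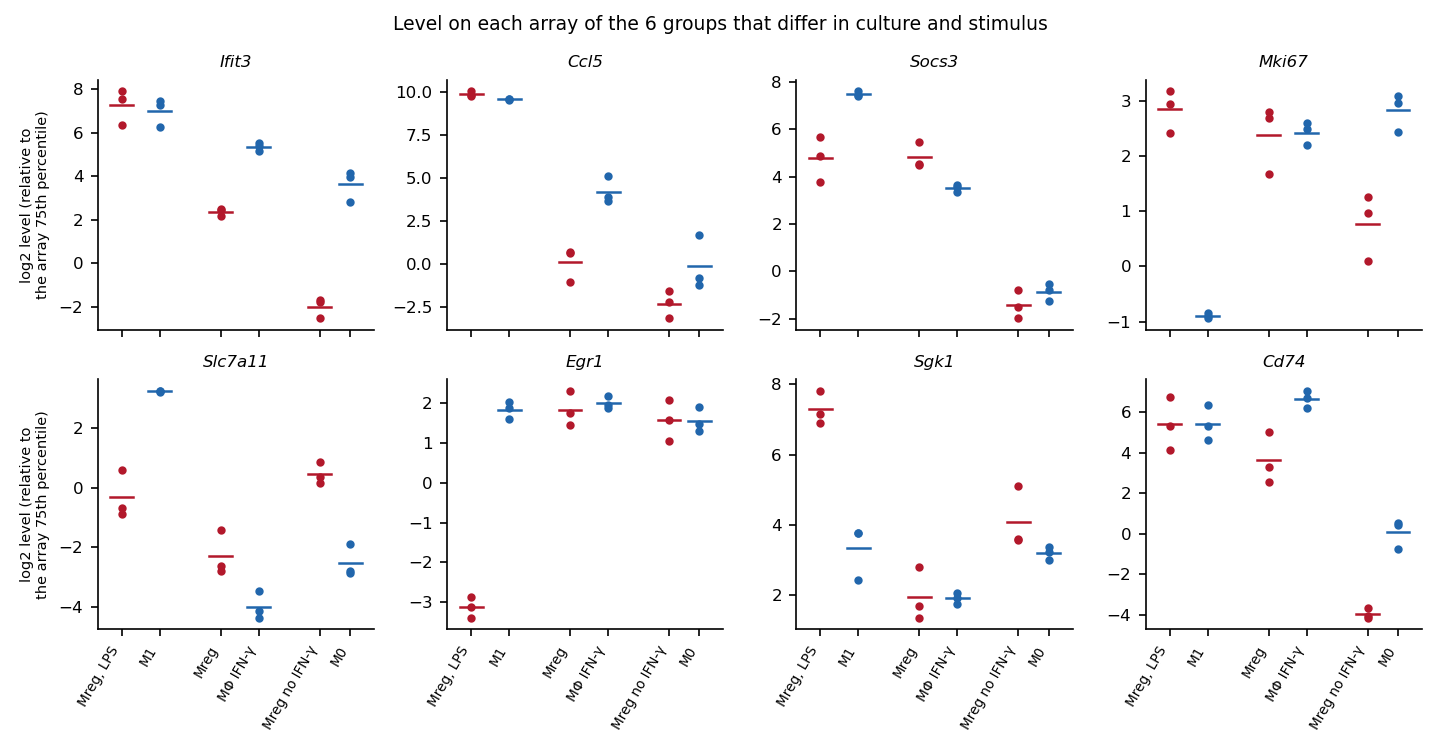
Log2 level of 8 genes on each array (3 per group) of Mreg given LPS, M1 macrophages, Mreg, MΦ_IFN-γ, Mreg_no IFN-γ and MΦ_M0, relative to the array 75th percentile, with red for the Mreg medium, blue for the M-CSF medium and bars at the means. Ifit3 and Ccl5 are close in the 2 groups given LPS and apart with IFN-γ alone. Without stimulus Ifit3 is apart, while some arrays of the 2 media lie near each other for Ccl5. Egr1 is low only in Mreg given LPS, with a mean of −3.13, and Mki67 is lowest in M1 macrophages, with a mean of −0.89.

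Feedback regulators went the other way. Relative to IFN-γ alone 13 of 21 were more negative and none more positive (0 unadjusted, median −1.59). Socs3 averaged 4.78 ± 0.95 in Mreg given LPS and 7.49 ± 0.10 in M1 macrophages, but 4.82 ± 0.54 in Mreg and 3.53 ± 0.16 in MΦ_IFN-γ, so the order of the 2 media was opposite with LPS and with IFN-γ alone. Without stimulus Socs3 averaged −1.41 in Mreg_no IFN-γ and −0.86 in MΦ_M0, the same order as with LPS. The phosphatase Dusp2 averaged 0.32 ± 0.09 in Mreg given LPS and 2.17 ± 0.56 in M1 macrophages, and 2.51 ± 0.22 in Mreg and 1.13 ± 0.22 in MΦ_IFN-γ, also in opposite order. The transcription factor Egr1 averaged −3.13 ± 0.26 in Mreg given LPS and 1.84 ± 0.22 in M1 macrophages, and 1.84 ± 0.44 in Mreg and 2.01 ± 0.15 in MΦ_IFN-γ. Klf4, another factor, averaged 3.17 ± 0.31 in Mreg given LPS and 6.09 ± 0.14 in M1 macrophages, and 2.78 ± 0.06 in Mreg and 2.43 ± 0.12 in MΦ_IFN-γ. Of 25 NRF2 and glutathione genes 18 were more negative and 1 more positive. Slc7a11 averaged −0.32 ± 0.82 in Mreg given LPS and 3.25 ± 0.02 in M1 macrophages, −2.29 ± 0.73 in Mreg and −4.01 ± 0.46 in MΦ_IFN-γ, another gene whose order was opposite.

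Tlr4 averaged −0.72 ± 0.56 in Mreg given LPS and 1.95 ± 0.12 in M1 macrophages, and 2.41 ± 0.29 in Mreg and 2.85 ± 0.06 in MΦ_IFN-γ, so the 2 media lay closer under IFN-γ alone. Tnf averaged 1.99 ± 0.44 in Mreg given LPS and 6.60 ± 0.10 in M1 macrophages, and 0.38 ± 0.50 in Mreg and 2.84 ± 0.39 in MΦ_IFN-γ. Its difference of effects was −2.14 ± 0.48 (SE), adjusted p = 0.0009. Of the 28 cytokines and NF-κB targets, 7 were more negative and 5 more positive relative to IFN-γ alone (median −0.26). Sgk1 averaged 7.29 ± 0.47 in Mreg given LPS and 3.33 ± 0.77 in M1 macrophages, and 1.95 ± 0.75 in Mreg and 1.91 ± 0.15 in MΦ_IFN-γ. Vsir averaged 4.70 ± 0.24 in Mreg given LPS and 1.44 ± 0.35 in M1 macrophages, and 4.39 ± 0.25 in Mreg and 4.10 ± 0.13 in MΦ_IFN-γ, so it was low in M1 macrophages alone among these 4 groups. Cd74, the class II invariant chain, averaged 5.39 ± 1.33 in Mreg given LPS and 5.43 ± 0.87 in M1 macrophages, and 3.63 ± 1.28 in Mreg and 6.67 ± 0.42 in MΦ_IFN-γ, with wide spread among replicates. Its difference of effects was not called when only these 4 groups entered the fit (adjusted p = 0.058). In class II presentation 8 of 13 were more positive relative to IFN-γ alone and none more negative (0 unadjusted).

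Cell cycle genes were more positive in 24 of 34 cases relative to IFN-γ alone, where none was more negative (1 unadjusted), and in 28 relative to no stimulus, where 1 was more negative. Without stimulus 29 of the 34 were lower in the Mreg medium and 0 higher (median −1.77). With IFN-γ alone 5 were lower and 1 higher. Mki67 averaged 2.84 ± 0.38 in Mreg given LPS and −0.89 ± 0.05 in M1 macrophages, 2.38 ± 0.61 in Mreg and 2.43 ± 0.20 in MΦ_IFN-γ, and 0.77 ± 0.60 in Mreg_no IFN-γ and 2.82 ± 0.35 in MΦ_M0. Myc averaged 0.16 ± 0.81 in Mreg given LPS and −4.76 ± 0.32 in M1 macrophages, and 1.47 ± 0.10 in Mreg and 0.70 ± 0.35 in MΦ_IFN-γ. Among these groups M1 macrophages had the lowest level of both genes. The mitotic kinase Plk1 averaged −1.13 ± 0.16 in Mreg given LPS and −4.09 ± 0.16 in M1 macrophages, and 0.79 ± 0.44 in Mreg and 1.84 ± 0.04 in MΦ_IFN-γ, so for Plk1 both groups given LPS were lower than both without it. The unfolded protein response had 10 of 21 genes more positive and none more negative relative to IFN-γ alone (0 unadjusted). Ddit3 averaged 4.89 ± 0.40 in Mreg given LPS and 3.74 ± 0.58 in M1 macrophages, and 1.75 ± 0.04 in Mreg and 3.10 ± 0.13 in MΦ_IFN-γ, with the opposite order of the 2 media.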

How the data were processed

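RNA of each culture was labelled with Cy3 and hybridised to its own 1-colour Agilent array, per the labels. The deposited scanner intensities were made with Feature Extraction 10.5.1.1, per the file headers, which subtracts background within an array and does not scale between arrays. The authors' deposited series table holds log2 values that correlate with the scanner values at 0.9974 or above, with centring not given in the sources used here. It served only as an alternative.

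From the processed intensities, log2 values minus each array's 75th percentile were computed. Probes that passed the background flag on 3 or more of the 36 arrays were kept (26478 of 41174), and the brightest probe stood for each of 17605 genes. Gene names were updated through RefSeq's tables. Of 4079 called genes with several probes, 653 had a probe called the other way. limma 3.58.1 in R 4.3.3 fitted the 12 group means on all 36 arrays, with Benjamini-Hochberg adjustment within each comparison at 0.05. The procedure was tested on simulated data. Array number limits the precision, with 3 arrays a group. No pair of arrays held identical values. Of the genes tested, 18 lacked a value on some of the 6 arrays because outlier spots were dropped.

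A gene above background on no array of its dimmer group got a bound: the bright group's mean over the higher of the lowest signal above background and the dim probe's own. Fitted log2 values of such genes depend on background, and 1899 genes were above background in neither group. Genes named in the text were the 12 largest rises and 12 largest falls, the 6 largest bounds each way, up to 4 members per list called with at least 2-fold change, a fixed set of macrophage genes and, for each difference of effects, the 6 most positive, the 6 most negative and up to 2 members per list. The comparison, its members and the gene lists were chosen with earlier results of these data known. Alternatives changed background correction, scaling, filter, probe choice, source table, arrays in the fit, replicate block, slide, scan day and the arrays included. A few genes that meet these rules are not reported here.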

Additional observations from a re-analysis of the deposited data

Results flagged for a closer look

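The effect of the Mreg medium under IFN-γ with LPS differed from its effect under IFN-γ alone for 6153 genes and from its effect without stimulus for 6451, each by a test of the difference itself in limma over 4 groups of 3 arrays. No explanation was weighed. Values below are the log2 effect of the medium (Mreg medium minus the M-CSF medium) with LPS minus the same effect under the other stimulus. Positive values are genes whose effect was more positive with LPS.

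Relative to IFN-γ alone, the largest positive differences among genes measured in all 4 groups were Ocstamp with 4.67, Ier5l with 4.65, Ccl5 with 4.42, Myc with 4.15, Ccnb2, a mitotic cyclin, with 4.13 and Tent5c, an RNA-modifying enzyme, with 4.10. Cxcr4 gave 4.09, Plk1 4.01, Sgk1 3.92, Ifit3 3.25, H2-Eb1, a class II chain, 3.05 and Cd74 3.01. Vsir gave 2.97, C3 2.94, Acod1 2.62, Ddit3 2.50, Tlr7 2.40, Cd40 2.25, Herpud1 2.14 and Vegfa 1.67. In Ocstamp, Vegfa and Cxcr4 the Mreg medium had the higher mean under both stimuli and the gap was wider with LPS. In Ccl5, Ifit3, C3 and Cd40 the Mreg medium had the lower mean under IFN-γ alone and a slightly higher one with LPS.

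The largest negative differences were Lpar1, a lysophosphatidic acid receptor, with −5.50, Slc7a11 with −5.30, Ccl7 with −5.00, Kctd12 with −4.87, the AP-1 member Fosl1 with −4.86 and Egr1 with −4.80. Il6 gave −4.35, a value that rests on groups where Il6 was below background, Gsta3, a glutathione transferase, −4.34, Socs3 −4.00, Klf4 −3.27 and Dusp2 −3.23. The lactate exporter Slc16a3 gave −2.49, Tlr4 −2.23 and Tnf −2.14. Gsta3 averaged 2.26 ± 0.13 in Mreg given LPS and 0.94 ± 0.28 in M1 macrophages, and 1.17 ± 0.45 in Mreg and −4.49 ± 0.52 in MΦ_IFN-γ (SD, n = 3 each). Lpar1 averaged −1.84 ± 0.72 in Mreg given LPS and 0.43 ± 0.16 in M1 macrophages, and −2.36 ± 0.73 in Mreg and −5.58 ± 0.37 in MΦ_IFN-γ, so the order of the media was opposite.

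Relative to no stimulus, Ifi206, an interferon-inducible gene of the DNA sensor family, differed by 6.36, Ifit3 by 5.91, Ccnb2 by 5.86, Plk1 by 5.79, Mki67 by 5.78, Ier5l by 5.70 and Ifit2 by 4.67. Insig1, which restrains sterol synthesis, differed by 3.46 and Tlr7 by 3.21. Ifi206 averaged 6.25 ± 0.06 in Mreg given LPS and 5.12 ± 0.29 in M1 macrophages, and −3.64 ± 0.66 in Mreg_no IFN-γ and 1.60 ± 0.53 in MΦ_M0. On the negative side Slc7a11 differed by −6.56, the Wnt receptor Fzd1 by −5.37, Treml4 by −5.10, Egr1 by −4.99, the potassium channel subunit Kcnab1 by −4.85, Thbs1, an adhesive matrix protein, by −4.80 and Nqo1 by −3.98. Kcnab1 lay near background on some arrays of Mreg given LPS (−5.48, −2.78 and −4.87) and MΦ_M0 (−4.87, −6.02 and −5.43), which limits its value. Thbs1 averaged −0.34 ± 0.31 in Mreg given LPS and 1.86 ± 0.43 in M1 macrophages, and 1.85 ± 0.21 in Mreg_no IFN-γ and −0.75 ± 0.13 in MΦ_M0, the opposite order.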

How the results depend on the processing

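The count of 9653 called genes lay between 6997 (normexp background correction) and 10234 (series number as a replicate block) over the other settings, and between 8920 and 9343 with any 1 of the 6 arrays left out. Normexp gave 3895 genes against 6153 for the difference from IFN-γ alone and 4258 against 6451 for the difference from no stimulus, and moved the median of all genes to 0.25. The cause was not tested. Leaving out an array gave 5583 to 6149 and 5861 to 6364 for these 2 counts. Deviations of same-numbered arrays of Mreg given LPS and M1 macrophages correlated at 0.227, 0.094 and 0.161, each array best with its own number, which did not pass the rule that every pair exceed 0.1. Between groups of the same medium all passed: 0.302, 0.434 and 0.298 for Mreg given LPS with Mreg, 0.273, 0.411 and 0.283 with Mreg_no IFN-γ, 0.235, 0.105 and 0.225 for M1 macrophages with MΦ_IFN-γ, and 0.203, 0.171 and 0.214 with MΦ_M0. Same-numbered arrays of Mreg given LPS, Mreg and Mreg_no IFN-γ lay on the same slide, as did those of M1 macrophages and MΦ_M0. Same-numbered arrays of all these groups also shared a scan day. A shared culture series therefore cannot be told apart from a shared slide or scan day in these correlations. The replicate block gave 10234, 7011 and 7270 calls in the 3 comparisons and ended no call of a gene named in the text. Of 4072 gene values under alternatives, 4010 kept direction and side of the threshold, 44 were no longer called, 10 became called and 8 changed sign, none of these 8 from a called gene. For Ifit3 the culture difference was −0.05 after quantile normalization and −0.12 in the authors' deposited values, with −0.08 to 0.73 when an array was left out. Cd274 was −0.01 in the authors' deposited values. Leaving out an array gave −1.47 to 0.07 for Il12b and −0.11 to 0.35 for Retnla. Signal over background limits all dim genes: 1526 genes have only a bound, and 833 of these were called.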
